A study of Erythranthe pardalis x Erythranthe guttata and Erythranthe pardalis with 20 samples.

Results

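Of the 28140 genes listed, 30 had almost no reads in un-pollinated ovules and were read at every seed age sampled. They were chosen on measured values. Each count was divided by the total of its library and expressed as CPM (counts in 1e6), and CPM was averaged over the libraries of an age. A gene was kept where its mean was at most 0.5 CPM in ovules, at least 5 CPM at each seed age, which is given in days after pollination (DAP) and was 2, 4, 6 or 8 DAP, and where the highest seed mean was at most 6 times the lowest. Level at each age was thus fixed by the choice, and the differences between ovules and seeds are given as a description. The libraries came from 5 pools of un-pollinated ovules of SEC39, an inbred line of the selfing species Mimulus pardalis (0 DAP), and from whole seeds of SEC39 pollinated by CSS4, an inbred line of M. guttatus, at 2 DAP (n = 4), 4 DAP (n = 3), 6 DAP (n = 4) and 8 DAP (n = 4). All seeds carried the CSS4 genome and no ovule did, and no selfed seed was sequenced, so that fertilization, age and the paternal genome cannot be told apart. Labels describe each replicate as a pool of ovaries or fruits from different plants and the study's methods describe seed pools of 1 maternal plant each, and p-values therefore measure the spread between these pools only.

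In flowering plants a pollen tube delivers a pair of sperm cells. Fusion with the egg cell gives the embryo, and fusion with the central cell gives the endosperm, the tissue that feeds the embryo. The maternal layers around them grow into the seed coat. In Mimulus the endosperm forms cell walls from its earliest divisions. Whole seeds mix the 3 tissues and may carry remains of pollen tubes or placenta, and a gene read in seeds cannot be placed in a tissue. In such bulk samples fewer cells of a type and less RNA per cell cannot be told apart.

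Library totals ran from 7588155 to 16529554 counts, and a count of 0 allowed 3 counts, or 0.181 to 0.395 CPM, for counting error only. The cell type lists held few genes that could be matched by homologue. The summed level of the 7 genes on the egg and central cell list was 62.4 to 175 CPM in ovules and 21.1 to 45.4 CPM at 2 DAP, and the 5 homologues of EC1, a secreted egg cell protein, among them had at most 0.34 CPM on average from 4 DAP on. The AGL80 homologues on this list went the other way. Migut.B01455 had means of 0.0761 CPM in ovules and 23.8 CPM at 2 DAP, the highest of the 7 genes at that age. Migut.C01325 had 0.749 CPM in ovules and 15.3 CPM at 6 DAP. The 6 genes of the embryo list summed to 1.04 to 3.55 CPM in ovules, 9.50 to 32.2 CPM at 2 DAP, 67.3 to 86.4 CPM at 6 DAP and 114 to 232 CPM at 8 DAP. The last sum was mostly the L1L homologue Migut.M01443, with means of 16.2 CPM at 6 DAP and 161 CPM at 8 DAP, and the means of the other 5 were lower at 8 than at 6 DAP. The 3 genes found of the seed coat list summed to 50.0 to 62.2 CPM in ovules and 439 to 906 CPM at 6 DAP. The higher sum was that of the TT10 homologue Migut.C00171, with means of 14.8 CPM in ovules and 700.1 CPM at 6 DAP, while the homologues of GL2 (Migut.I00940) and CHS (Migut.G00630) went from 39.2 and 3.39 CPM to 7 and 0.188 CPM. The 7 genes found of the endosperm list summed to 3.23 to 12.9 CPM in ovules, 14.1 to 25.3 CPM at 2 DAP, 3.35 to 4.74 CPM at 6 DAP and 5.83 to 11.8 CPM at 8 DAP. Apart from a homologue of ZOU (Migut.B00361) these were homologues of AGL62. Of them Migut.B00480 went from 7.11 CPM in ovules to 1.21 CPM at 2 DAP, and Migut.D01476 from 0.385 to 8.76 CPM. The ZOU homologue had means of 0 CPM at 2 DAP, 1.74 CPM at 6 DAP and 6.45 CPM at 8 DAP. Of 12 pollen markers 1 was found, a homologue of RABA4D with 0.132 to 1.55 CPM in ovules and 0.895 to 16.5 CPM at 2 DAP. It had 3.75 to 5.58 CPM at 4 DAP, 12.6 to 22.7 CPM at 6 DAP and 0.233 to 3.38 CPM at 8 DAP. No marker was among the 30 genes, and the part of these cell types in the values below was not tested. Replicate 1 at 2 DAP stood apart from replicates 2 to 4. Over the 11131 genes with a mean of at least 5 CPM at each seed age it lay above the other 3 libraries in 59.3% and below them in 19.2%, and over the 30 genes it lay above them for 10 and below them for 16. The part of scaling by library totals in these shares was not tested.

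The 30 genes were what was left of a larger set. In ovules 8775 genes had at most 0.5 CPM, and 197 of these had at least 5 CPM at 2 DAP. Of the 197 genes, 125 were under 5 CPM at 1 or more later ages, and 87 of these were under 5 CPM at 8 DAP. A further 42 genes stayed at 5 CPM or more at all 4 seed ages and varied over 6-fold among them. By the descriptions of their nearest A. thaliana homologues, S-protein homologues were the largest list among the 197 genes with 30, of which 1 was kept, 9 varied over 6-fold and 20 went under 5 CPM. Cell wall remodelling genes numbered 20, of which 3 were kept. Proteases numbered 6 with 2 kept, protease inhibitors 3 with 1 kept, and hormone genes 5 with 1 kept. None of the 9 small cysteine-rich peptides, 5 pectin methylesterase and invertase inhibitors, 4 lipases, 3 lipid transfer proteins, 3 transporters, 3 MADS-box genes or 4 other listed transcription factors was kept. Over all 197 genes 30 were kept. Most lists are too small to be set apart from that share, and differences between lists were not tested. Descriptions came from tables of the study that cover 5068 genes, many of them picked on these libraries, and 31 of the 197 genes had no entry. Of the 30 genes, 20 had a described homologue, 2 a homologue without a description, 3 an entry without a homologue and 5 no entry.

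**Figure D1:**
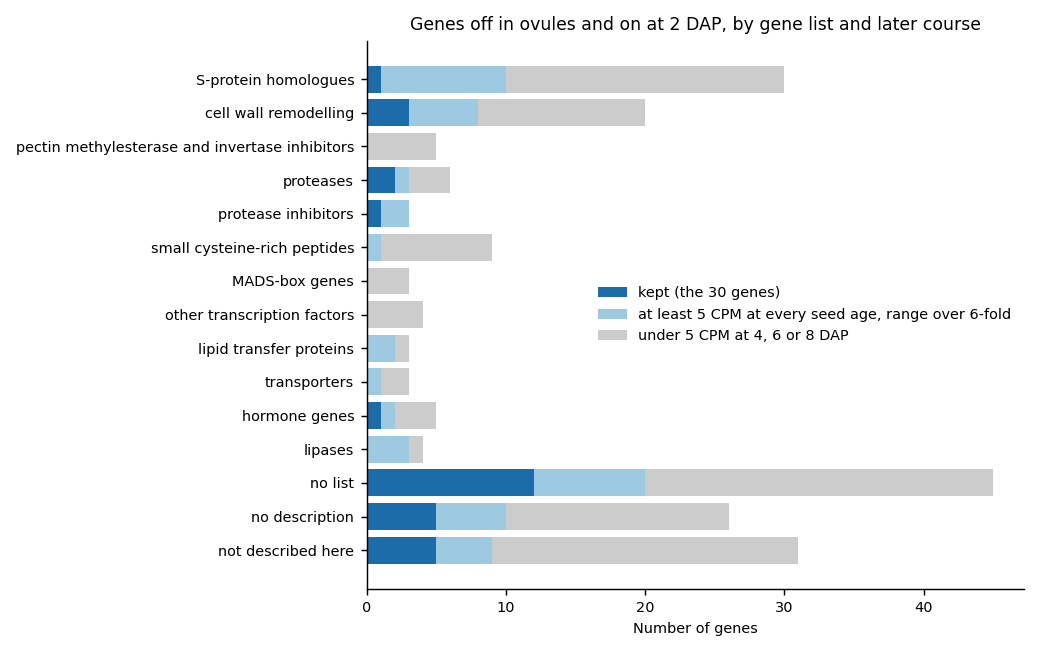
Number of genes with at most 0.5 CPM in ovules and at least 5 CPM at 2 DAP (197 in all), by gene list, split into genes kept at every seed age within 6-fold (30), genes at 5 CPM or more at every seed age that varied over 6-fold (42) and genes under 5 CPM at a later age (125). The 30 S-protein homologues hold 1 kept gene and the 20 cell wall genes hold 3.

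The genes nearest each limit, inside and outside, were as follows. In ovules, Migut.O00754 with 0.362 CPM and the homologue of IBH1 (Migut.D00738) with 0.350 CPM were the highest kept, and homologues of ARR2 (Migut.D00936) with 0.517 CPM and of a ribonuclease E inhibitor (Migut.M01573) with 0.522 CPM were the first outside. At the lower seed limit, Migut.O00754 with 5.24 CPM and a lysine decarboxylase family gene (Migut.J00536) with 5.59 CPM were inside, and Migut.E00266 with 4.45 CPM and Migut.J01161 with 4.20 CPM were outside. For the range over seed ages, the homologue of expansin B2 (Migut.N01289) at 5.80-fold and an HMG-box gene (Migut.C00909) at 5.70-fold were inside, and homologues of expansin B4 (Migut.F01690) at 6.01-fold and of the MATE efflux family (Migut.H00438) at 6.30-fold were outside. The number of genes kept was 26 to 37 when each library was left out in turn. Without replicate 1 at 2 DAP it was 27, and Migut.N01137, the homologue of TBL38 (Migut.D00791), Migut.J00536 and Migut.O00754 dropped out. Without the 6 libraries numbered 15 to 20 (ovule replicates 3 to 5 and 2 DAP replicates 2 to 4) it was 23, of which 18 were among the 30. These numbers are part of the study's sample names, and the sources used do not say what they stand for.

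In ovules the 30 genes had 272 counts together over 5 libraries, against 392802 counts over 15 seed libraries. No ovule count was found for 2 genes, 1 count for 5 genes, 2 to 9 counts for 10 genes and 10 to 21 counts for 13 genes. The highest level of any of them in any ovule library was 1.26 CPM, for the IBH1 homologue in ovule replicate 2. The lowest seed library lay above the highest ovule library for all 30 genes. The limits of the choice favoured this, and nothing is read from it. edgeR's quasi-likelihood test called all 30 higher at 2 DAP than in ovules at an adjusted p under 0.01, where 11.8% of the 20242 genes tested were called higher. The choice of genes fixed this count, and nothing is read from it. Of the 450 values of the 30 genes in single seed libraries, 26 were under 5 CPM and 2 under 1 CPM, and 19 genes were at 5 CPM or more in every seed library.

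**Figure D2:**
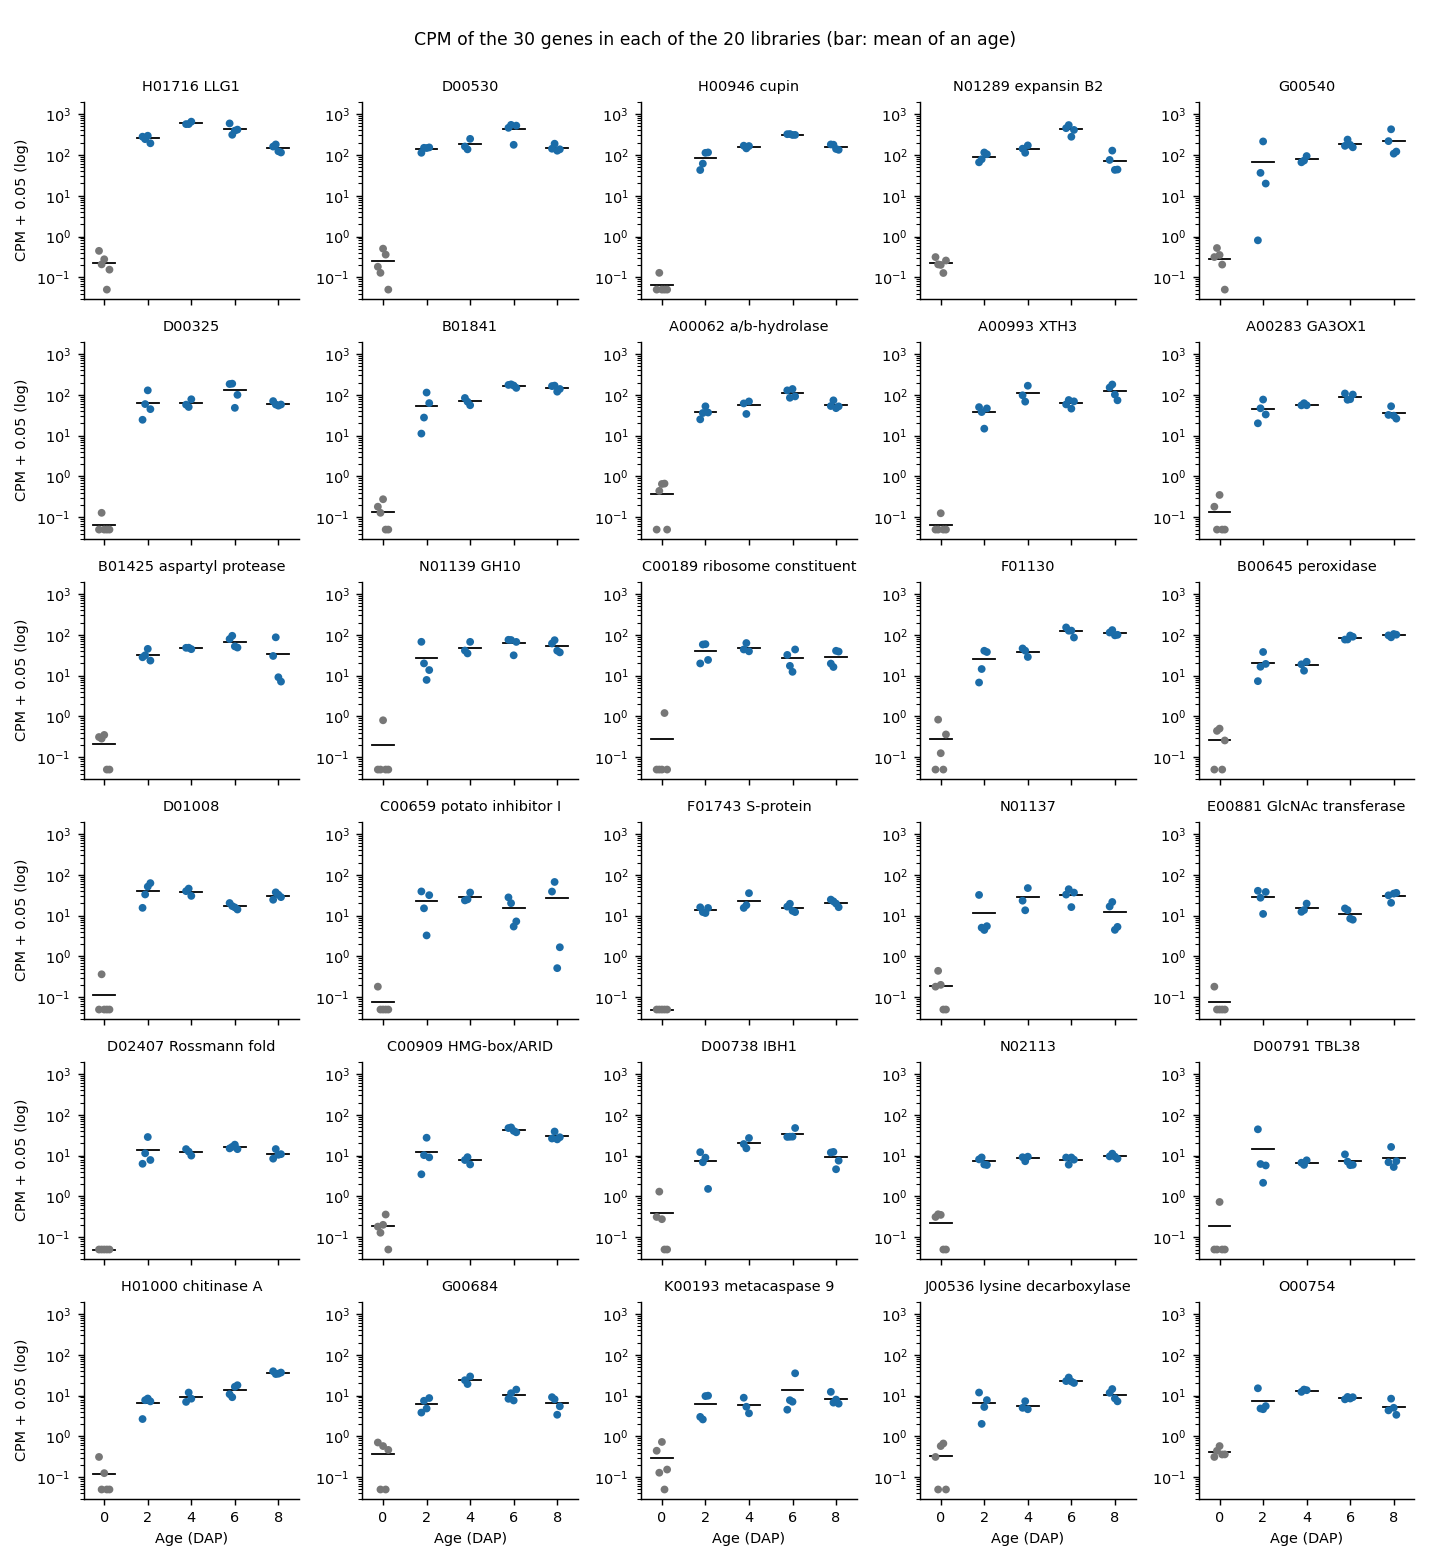
CPM plus 0.05 on a log axis for each of the 30 genes in each of the 20 libraries against age in DAP (grey: ovules, blue: seeds, bar: mean of an age). The seed libraries of each gene lie above its ovule libraries, whose highest value is 1.26 CPM, which the choice of genes favoured.

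Sequencing reads were not divided by gene length, and the level of a gene is therefore compared only with its own level in other libraries. In A. thaliana LORELEI-LIKE-GPI-ANCHORED PROTEIN 1 (LLG1) is a co-receptor that accompanies FERONIA and related receptor kinases at the cell membrane. Whether its kept homologue, Migut.H01716, has this role was not tested. Its ovule libraries held 3, 2, 3, 0 and 1 counts. It had 280, 243, 295 and 192.8 CPM at 2 DAP, 569, 569.7 and 653 CPM at 4 DAP, 592, 311, 392 and 417 CPM at 6 DAP and 160, 181, 123 and 115 CPM at 8 DAP. The libraries of 8 DAP lay below those of every other seed age. It fell by 1.21 on the log2 scale from 6 to 8 DAP (edgeR, SE 0.29, adjusted p = 0.00412), and its difference between 2 and 4 DAP of 0.84 (SE 0.30) did not pass. A gene with the same nearest homologue, Migut.M01586, was read in ovules, with 183 ± 72.1 CPM (SD, n = 5), and had 227 ± 63.9 CPM at 2 DAP (n = 4) and 74.4 ± 17 CPM at 8 DAP (n = 4). Its difference between ovules and 2 DAP was 0.75 on the log2 scale (SE 0.31, edgeR adjusted p = 0.0775) and did not pass.

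Cell wall remodelling genes loosen, cut or rejoin wall polymers as cells expand, and 3 were among the 30. Expansins loosen walls without cutting them. The homologue of expansin B2 (Migut.N01289) had 2, 2, 2, 1 and 2 counts in the ovule libraries. It had 65.9, 78.1, 115 and 104 CPM at 2 DAP, 142, 113 and 171 CPM at 4 DAP, 452, 539, 279 and 410 CPM at 6 DAP and 75.3, 127, 42.9 and 43.8 CPM at 8 DAP. All 6 DAP libraries lay above all libraries of other ages. The gene rose by 1.77 on the log2 scale from 4 to 6 DAP (SE 0.37, edgeR adjusted p = 0.00248) and fell by 2.2 from 6 to 8 DAP (SE 0.34, adjusted p = 0.000106). The 6-fold limit left out this gene when replicate 3 at 6 DAP or replicate 2 at 8 DAP was not used.

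Xyloglucan endotransglucosylase/hydrolases cut xyloglucan, a hemicellulose, and can join the cut ends to other chains. The homologue of XTH3 (Migut.A00993) had 1 count in 5 ovule libraries. It had 50.1, 37.9, 14.8 and 46.6 CPM at 2 DAP, 97.8, 68.4 and 168 CPM at 4 DAP, 58.4, 74.9, 46.0 and 69.4 CPM at 6 DAP and 152, 180, 102 and 73.6 CPM at 8 DAP. Every library of 8 DAP lay above those of 2 DAP, and 1 of them lay below the highest of 6 DAP. The gene rose by 2.00 on the log2 scale from 2 to 8 DAP (SE 0.32, edgeR adjusted p = 7.8e-05). It also rose by 1.38 from 6 to 8 DAP (SE 0.32, adjusted p = 0.00324), a call that was lost when counts were scaled by library totals alone (1.03, adjusted p = 0.0409). The difference between 2 and 4 DAP was 1.25 (SE 0.34), with an adjusted p of 0.0438.

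Glycosyl hydrolases of family 10 include xylanases, which cut xylan. The family member kept, Migut.N01139, had all of its 10 ovule counts in replicate 3. It had 67.5, 19.9, 7.82 and 13.7 CPM at 2 DAP, 41.3, 35.0 and 67.3 CPM at 4 DAP, 75.7, 74.8, 31.5 and 67.2 CPM at 6 DAP and 61.4, 74.0, 40.9 and 37.2 CPM at 8 DAP. Replicate 1 at 2 DAP was far above the other 3, and none of the 4 comparisons of seed ages passed the test. Gene numbers in the names follow the order of genes on a linkage group, and Migut.N01137, for which no description was at hand, lies 2 numbers away. It had 32.1, 5.03, 4.40 and 5.47 CPM at 2 DAP and 16.7, 21.6, 4.43 and 5.26 CPM at 8 DAP, and 13.5 to 47.4 CPM in the libraries of 4 and 6 DAP. Between them lies Migut.N01138, a further family 10 gene with 85.6, 15.8, 2.98 and 12.4 CPM at 2 DAP. At 2 DAP replicate 1 was the highest of the 4 libraries for all 3 genes.

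Hormone genes were represented by the homologue of GA3OX1 (Migut.A00283), which in A. thaliana carries out the last step to active gibberellin. Its ovule libraries held 1, 0, 4, 0 and 0 counts. It had 20.1, 46.9, 76.9 and 33.1 CPM at 2 DAP, 55.4, 62.5 and 55.6 CPM at 4 DAP, 108, 75.8, 78.4 and 102 CPM at 6 DAP and 32.2, 52.6, 30.9 and 26.2 CPM at 8 DAP. The means were highest at 6 DAP (91.1 ± 16.4 CPM, SD, n = 4) and lowest at 8 DAP (35.5 ± 11.7 CPM, n = 4), and none of the 4 comparisons of seed ages passed the test. The lysine decarboxylase family gene (Migut.J00536) belongs by its description to a family that in A. thaliana includes the LONELY GUY enzymes, which release active cytokinin. It had 11.8, 1.98, 5.21 and 7.69 CPM at 2 DAP, 4.96, 7.24 and 4.58 CPM at 4 DAP, 22.6, 27.7, 22.1 and 20.4 CPM at 6 DAP and 11.6, 14.4, 8.48 and 7.19 CPM at 8 DAP. The 6 DAP libraries lay above all others. It rose by 2.25 on the log2 scale from 4 to 6 DAP (SE 0.54, edgeR adjusted p = 0.00694), and by 2.05 with an adjusted p of 0.0291 when scaled by library totals alone.

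Secreted proteases and their inhibitors act on proteins in the wall space and vacuole. The aspartyl protease family gene (Migut.B01425) had 28.2, 31.6, 45.3 and 23.4 CPM at 2 DAP, 48.2, 48.4 and 44.6 CPM at 4 DAP, 79.0, 94.8, 52.2 and 48.8 CPM at 6 DAP and 30.4, 87.1, 9.10 and 7.11 CPM at 8 DAP. The 8 DAP libraries spanned a wider range than all the others together. The homologue of metacaspase 9 (Migut.K00193), a cysteine-dependent protease that in A. thaliana acts in dying xylem cells, had 2.96, 2.55, 9.68 and 9.91 CPM at 2 DAP, 3.63 to 8.83 CPM at 4 DAP, 4.46, 7.67, 7.02 and 35.2 CPM at 6 DAP and 6.30 to 12.3 CPM at 8 DAP. Its 6 DAP mean of 13.6 CPM rests on replicate 4. The potato inhibitor I gene (Migut.C00659), of a family that blocks serine proteases, had 39.2, 15.1, 3.23 and 31.7 CPM at 2 DAP and 28.0, 20.2, 5.35 and 7.18 CPM at 6 DAP. At 8 DAP it had 38.9, 66.9, 0.467 and 1.63 CPM, and with 8 DAP replicates 3 and 4 below 2 CPM it was not kept on in all pools. None of the 4 comparisons of seed ages passed the test for these 3 genes.

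S-protein homologues are small secreted proteins named after the stigma S protein of poppy, where they act in self-incompatibility. The kept member, Migut.F01743, had no count in any ovule library. Against 3 counts in each ovule library its mean was at least 49.0-fold higher at 2 DAP and at least 73.7-fold higher at 8 DAP. It had 16, 12.2, 11.5 and 15.4 CPM at 2 DAP, 15.4, 18.0 and 35.5 CPM at 4 DAP, 16.6, 19.5, 13.1 and 12.2 CPM at 6 DAP and 24.7, 22.3, 19.7 and 16.1 CPM at 8 DAP. All 15 seed libraries lay between 11.5 and 35.5 CPM, and none of the 4 comparisons of seed ages passed the test.

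The other genes with a described homologue fell into enzymes and nuclear proteins. Cupins include germin-like proteins of the cell wall, and the cupin gene Migut.H00946 had 42.6, 61.1, 112 and 115 CPM at 2 DAP, 168, 145 and 165 CPM at 4 DAP, 322, 325, 308 and 309 CPM at 6 DAP and 181, 178, 140 and 133 CPM at 8 DAP, after 1 count in ovules. Its 6 DAP libraries lay above all others and its 2 DAP libraries below all others, and none of the 4 comparisons of seed ages passed at 0.01. It was the only gene of the 30 on the study's list of 163 genes with more reads from the CSS4 allele, which was made on these libraries. Peroxidases oxidize phenolic compounds and can cross-link walls. The peroxidase gene Migut.B00645 had 7.29, 16.5, 38.0 and 19.4 CPM at 2 DAP, 18.9, 13.2 and 21.9 CPM at 4 DAP, 76.6, 77.1, 96.4 and 90.0 CPM at 6 DAP and 97.1, 87.1, 105 and 101 CPM at 8 DAP. All libraries from 6 DAP on lay above all earlier ones. It rose by 2.45 on the log2 scale from 4 to 6 DAP (SE 0.52, edgeR adjusted p = 0.00269) and by 2.31 from 2 to 8 DAP (SE 0.46, adjusted p = 0.000614).

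Chitinases cut chitin, a polymer of fungal walls. The homologue of chitinase A (Migut.H01000) had 2.61, 7.66, 8.44 and 7.17 CPM at 2 DAP, 6.96, 11.8 and 8.35 CPM at 4 DAP, 10.8, 9.08, 16.4 and 17.9 CPM at 6 DAP and 39.5, 33.7, 34.4 and 36.7 CPM at 8 DAP. The 8 DAP libraries lay above all others. It rose by 2.57 on the log2 scale from 2 to 8 DAP (SE 0.43, edgeR adjusted p = 0.0001) and by 1.80 from 6 to 8 DAP (SE 0.41, adjusted p = 0.00319), and the latter became 1.41 with an adjusted p of 0.0142 when scaled by library totals alone. A member of the beta-1,3-N-acetylglucosaminyltransferase family (Migut.E00881) had 40.6, 27.4, 11 and 38 CPM at 2 DAP, 12.3, 13.6 and 19.7 CPM at 4 DAP, 15, 13.6, 8.43 and 7.91 CPM at 6 DAP and 31.4, 20.6, 34.6 and 36.2 CPM at 8 DAP. The 8 DAP libraries lay above all of 4 and 6 DAP. It rose by 1.84 from 6 to 8 DAP (SE 0.35, edgeR adjusted p = 0.000659), and by 1.45 with an adjusted p of 0.0101 when scaled by library totals alone.

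HMG-box and ARID domains bind DNA in chromatin. The gene with both (Migut.C00909) had 3.44, 10.2, 27.4 and 9.02 CPM at 2 DAP, 7.74, 9.12 and 6.03 CPM at 4 DAP, 47.3, 49.1, 40.4 and 37.3 CPM at 6 DAP and 26.2, 38.9, 25 and 28.2 CPM at 8 DAP. The 6 DAP libraries lay above all of 2 and 4 DAP, and the gene rose by 2.71 on the log2 scale from 4 to 6 DAP (SE 0.56, edgeR adjusted p = 0.00237). IBH1 is in A. thaliana a helix-loop-helix protein that holds back cell elongation. Its homologue (Migut.D00738) had 12.1, 6.84, 8.87 and 1.48 CPM at 2 DAP, 19.2, 15.1 and 26.9 CPM at 4 DAP, 28.7, 29.0, 29.1 and 47.4 CPM at 6 DAP and 11.9, 12.3, 4.59 and 7.48 CPM at 8 DAP, and no comparison of seed ages passed at 0.01. It was on none of the transcription factor lists used, and the 30 genes held no MADS-box gene.

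The alpha/beta-hydrolase gene (Migut.A00062) had 25.1, 35.9, 52.4 and 36.9 CPM at 2 DAP and 129, 84.9, 139 and 91.8 CPM at 6 DAP. The homologue of a structural constituent of the ribosome (Migut.C00189) ranged from 12.4 to 63.0 CPM over the seed libraries, and had all of its 15 ovule counts in replicate 4. A Rossmann-fold gene (Migut.D02407) had no ovule count and 6.26 to 28.5 CPM over the seed libraries, with means at least 39.2-fold above 3 counts in each ovule library. The homologue of TBL38 (Migut.D00791), of a family that adds acetyl groups to wall polysaccharides, had 44.1, 6.18, 2.11 and 5.69 CPM at 2 DAP and 5.21 to 16.3 CPM in all later libraries. Without replicate 1 its 2 DAP mean was 4.66 CPM, under the limit.

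Of the 10 genes without a described homologue, Migut.D00530 had 113, 149, 147 and 153 CPM at 2 DAP, 161, 137 and 247 CPM at 4 DAP, 461, 545, 177 and 522 CPM at 6 DAP and 142, 188, 127 and 137 CPM at 8 DAP. Its nearest A. thaliana gene was AT3G02885. Migut.G00540 had 0.757, 36.3, 214 and 19.8 CPM at 2 DAP, and 65.9 CPM or more in every later library. Its means at the 4 seed ages, 67.7 to 218 CPM, spanned less than its libraries of 2 DAP. Migut.D00325 had 24.5, 59.5, 129 and 44.7 CPM at 2 DAP and 184, 188, 48.1 and 100.2 CPM at 6 DAP. Migut.B01841, with AT3G61660 as nearest gene, had 11.2, 27.8, 114 and 62.9 CPM at 2 DAP and 148 to 181 CPM at 6 DAP. Migut.F01130 had 6.74, 14.5, 40.8 and 37.9 CPM at 2 DAP, 46.4, 40.9 and 28.7 CPM at 4 DAP, 152, 126, 127 and 86.1 CPM at 6 DAP and 114, 131, 97.4 and 100.3 CPM at 8 DAP. It rose by 2.18 on the log2 scale from 2 to 8 DAP (SE 0.53, edgeR adjusted p = 0.0035), with no overlap between these ages. Migut.D01008 was lowest at 6 DAP, with 14.1 to 20.3 CPM against 24.5 to 37.2 CPM at 8 DAP, a difference that did not pass at 0.01 (1.23, SE 0.43, adjusted p = 0.0358). Migut.G00684 had 19.1 to 29.4 CPM at 4 DAP and 3.34 to 14 CPM at the other seed ages, and Migut.O00754 had 12.3 to 14 CPM at 4 DAP and 3.33 to 15.1 CPM at the others. Migut.N02113 varied least between ages, with means of 7.22 to 9.61 CPM and libraries between 5.84 and 11.1 CPM.

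Between seed ages the choice of genes capped the range but did not fix its direction. For 16 of the 30 genes the mean was highest at 6 DAP, for 6 at 4 DAP, for 6 at 8 DAP and for 2 at 2 DAP. With totals scaled by TMM, which sets the median change of all genes close to 0, these counts were 12, 3, 11 and 4. No share over all genes stands beside these counts, and they are not read as a trait of the set. Without TMM the median log2 change of all genes tested was 0.29 from 2 to 4 DAP, -0.21 from 4 to 6 DAP, -0.44 from 6 to 8 DAP and -0.37 from 2 to 8 DAP, and with TMM it was between -0.12 and 0.00. The highest mean was 1.33 to 5.80 times the lowest, with a median of 2.86, and 5 genes stayed within 2-fold. The spread among libraries of an age was widest at 2 DAP, with a median coefficient of variation of 58.0% over the 30 genes against 23.3% at 4 DAP, 25% at 6 DAP and 27.1% at 8 DAP. Over the 11131 genes read at every seed age the medians were 35.1%, 10.0%, 12.1% and 18.1%. These values were scaled by library totals alone. The TMM factors of the libraries ran from 0.716 to 1.33 at 2 DAP and from 1.14 to 1.20 at 4 DAP. They ran from 0.971 to 1.04 at 6 DAP and from 0.731 to 0.866 at 8 DAP. The part of scaling in the spread was not tested.

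**Figure D3:**
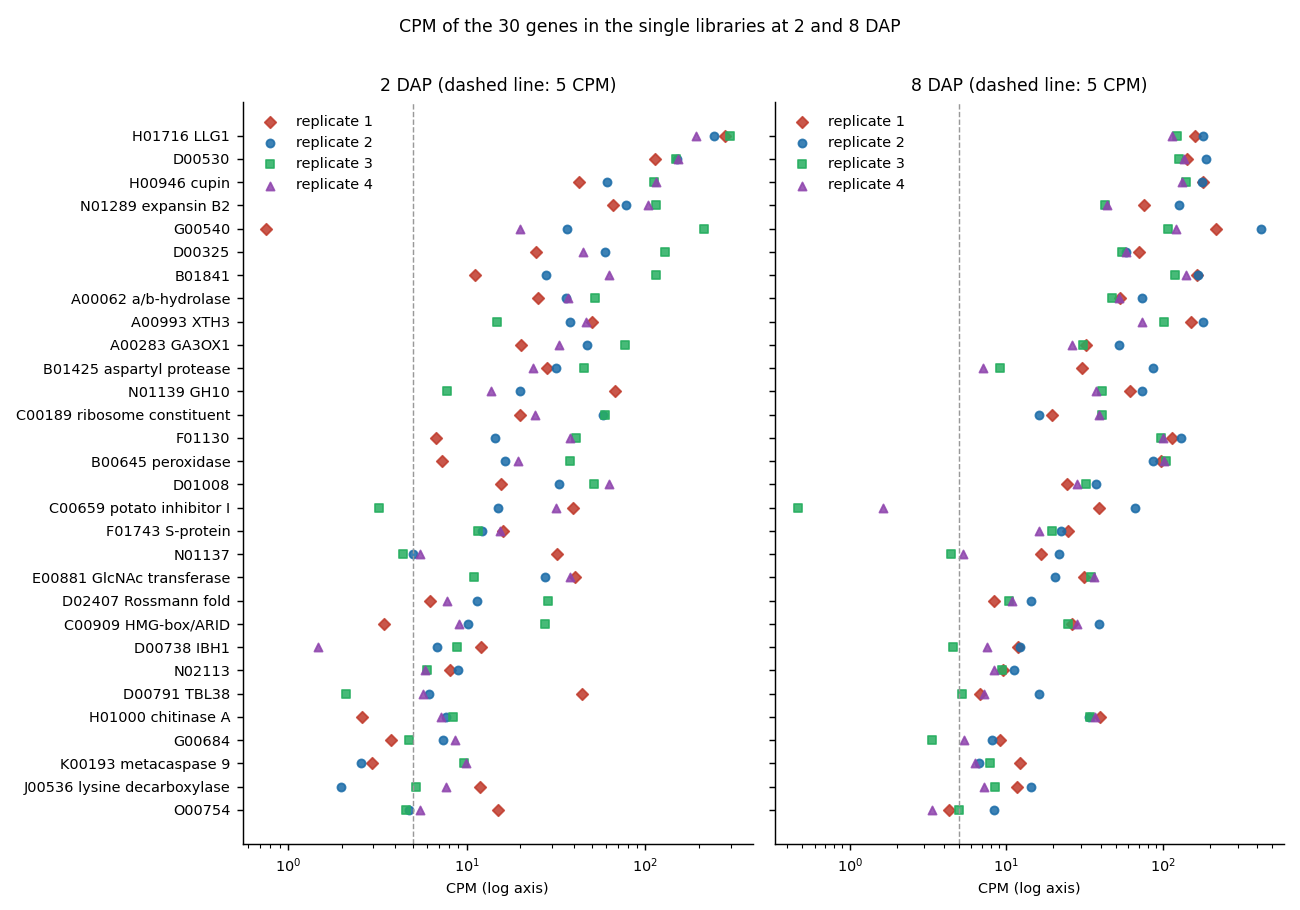
CPM on a log axis of each of the 30 genes in the 4 libraries of 2 DAP and the 4 libraries of 8 DAP (symbols: replicates, dashed line: 5 CPM). At 2 DAP replicate 1 lies above the other 3 libraries for 10 genes and below them for 16, and the lowest values are 0.757 CPM at 2 DAP (G00540) and 0.467 CPM at 8 DAP (C00659).

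From 2 to 4 DAP edgeR called 0 of the 30 genes, where 0.198% of all genes tested were called (0.0198% higher and 0.178% lower), and DESeq2 called 0 as well. Of the 30 genes 6 had an unadjusted p under 0.05, 4 with higher and 2 with lower levels at 4 DAP. No share of all genes is given at this looser limit, and nothing is read from this count. From 4 to 6 DAP 4 genes were called, all higher at 6 DAP, where 7.35% of all genes were called, 5.22% higher and 2.12% lower. They were the expansin B2 homologue, the lysine decarboxylase family gene, the peroxidase and the HMG-box gene. DESeq2 called 6 of the 30 genes. The shares of all genes in this paragraph are those of edgeR, and the DESeq2 counts have no share of their own beside them. The median change of the 30 genes was 0.77 on the log2 scale and that of all genes tested 0.00. None of these 4 calls held when any of the 3 libraries of 4 DAP was left out, and 8 genes were called without replicate 1 at 2 DAP. From 6 to 8 DAP 5 genes were called, where 14.3% of all genes were, 7.52% higher and 6.77% lower. The homologues of XTH3 and chitinase A and the N-acetylglucosaminyltransferase family gene were higher at 8 DAP, and the homologues of expansin B2 and LLG1 lower. DESeq2 called 6 genes. Scaled by library totals alone, 0 of the 30 genes were called higher and 3 lower, so that the direction of this split depends on the scaling. The call count was 2 without replicate 1 at 6 DAP and 3 without replicate 1 at 8 DAP. Between 2 and 8 DAP 4 genes were called, the homologues of XTH3 and chitinase A, the peroxidase and Migut.F01130, all higher at 8 DAP, where 20.2% of all genes were called, 9.9% higher and 10.3% lower, and DESeq2 called 4. Without replicate 3 at 2 DAP 8 genes were called, these 4 among them. In all, 9 of the 30 genes were called in at least 1 of the 4 comparisons of seed ages, where 28.3% of all genes tested were.

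**Figure D4:**
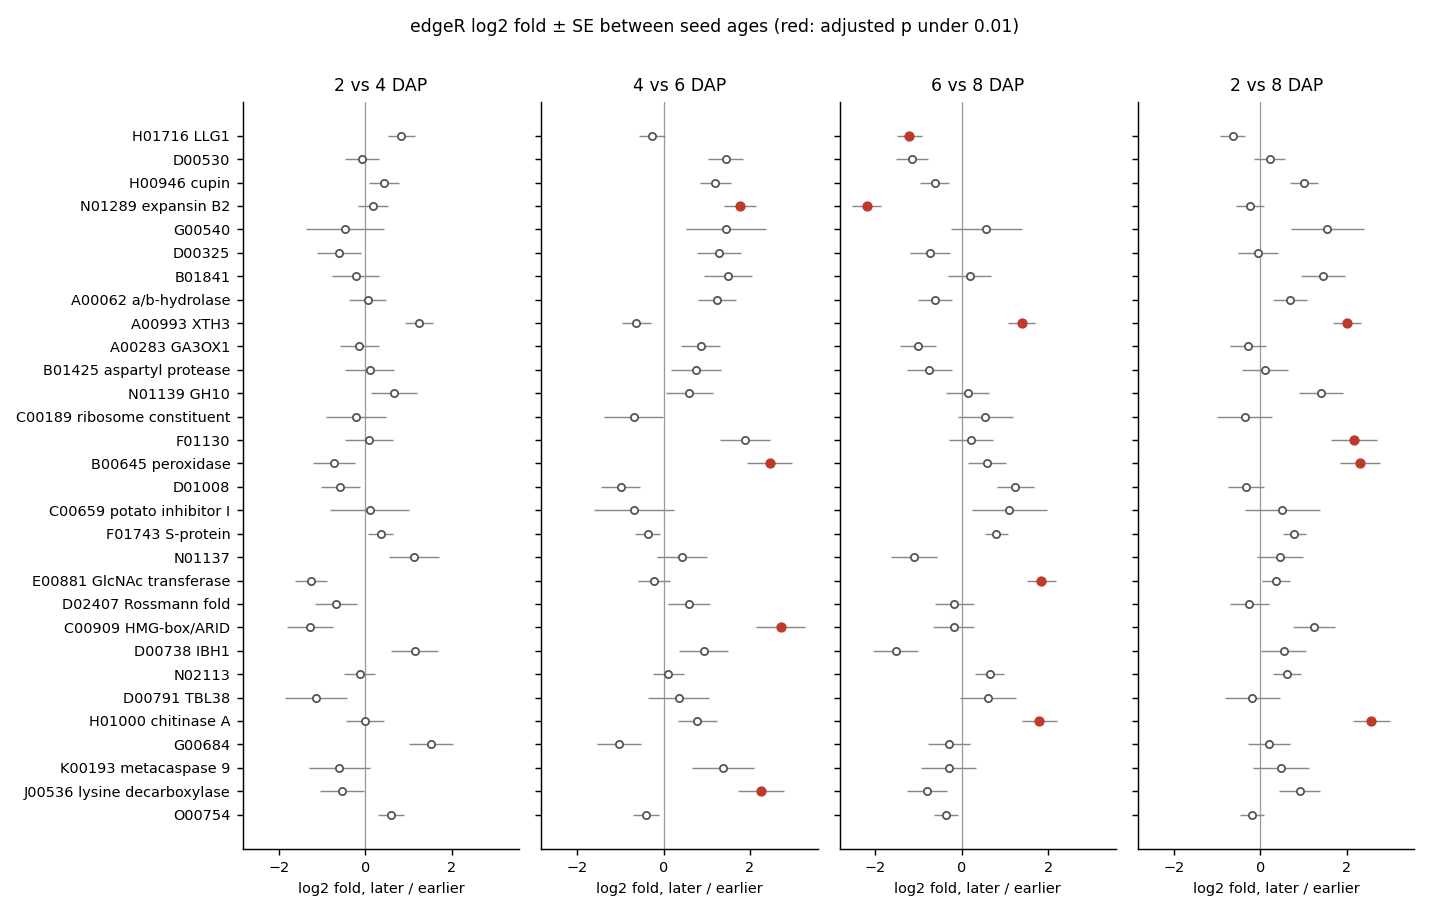
edgeR log2 fold change (later over earlier age) with its standard error for the 30 genes in 4 comparisons of seed ages, with TMM scaling. Filled red points passed an adjusted p of 0.01, which were 0 genes from 2 to 4 DAP, 4 from 4 to 6 DAP, 5 from 6 to 8 DAP and 4 from 2 to 8 DAP.

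For 15 of the 30 genes the tables held other genes with the same nearest A. thaliana homologue, 70 in all. These relatives were not chosen on their values, although the tables that name them were in part made from these libraries. Near-identical copies may share reads, and since uniquely mapped reads were counted their levels are uncertain. Of 69 relatives tested, edgeR called 40 higher and 8 lower at 2 DAP than in ovules, where 11.8% and 6.46% of all genes and 21.6% and 14.4% of the genes in the tables were. Among the 31 relatives of the S-protein homologue 24 were higher and 1 lower, and among the other 38 relatives 16 were higher and 7 lower. From off in ovules, 21 relatives were at 5 CPM or more at 2 DAP, and 8 of these remained there at all seed ages while 10 were under 5 CPM at 8 DAP.

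Of the 70 relatives 18 had a mean of 5 CPM or more in ovules, and they belonged to 11 of the 15 kept genes with relatives. The peroxidase Migut.C01047 had 457, 360, 304, 197 and 421 CPM in the ovule libraries and 40.7, 26.2, 16.4 and 17.1 CPM at 2 DAP, and fell by 3.48 on the log2 scale (SE 0.27, edgeR adjusted p = 9.1e-09), while the kept peroxidase Migut.B00645 went from 0.211 to 20.3 CPM. At 8 DAP Migut.C01047 had 3.77 ± 1.18 CPM and Migut.B00645 97.5 ± 7.61 CPM (SD, n = 4). The metacaspase 9 homologue Migut.K00207 had 17.8 ± 4.69 CPM in ovules (n = 5) and 23.8 ± 6.27 CPM at 2 DAP (n = 4), a difference that did not pass, and fell by 1.67 from 6 to 8 DAP (SE 0.37, adjusted p = 0.00253) to 1.25 ± 0.613 CPM. The relative of Migut.B01841, Migut.E01237, fell from 10.3 to 0.447 CPM between ovules and 2 DAP (-4.05, SE 0.63, adjusted p = 5.8e-05). The chitinase A homologue Migut.B01811 fell from 9.65 to 3.11 CPM (-1.26, SE 0.27, adjusted p = 0.00151). The cupin Migut.N00936 fell from 7.07 to 0.282 CPM (-4.10, SE 0.99, adjusted p = 0.0035), and the N-acetylglucosaminyltransferase family gene Migut.E01694 from 5.63 to 0.200 CPM (-4.43, SE 0.96, adjusted p = 0.00374). The expansin B2 homologue Migut.F00505 had 20.5 CPM in ovules and 4.58 CPM at 2 DAP, a difference that did not pass at 0.01 (-1.79, SE 0.66, adjusted p = 0.0452). Of the relatives of the aspartyl protease, Migut.A00855, Migut.A00870 and Migut.A00858 had 25.9, 11.8 and 9.15 CPM in ovules, and the last of these fell to 1.25 CPM (-2.42, SE 0.62, adjusted p = 0.00529). Of the relatives of the potato inhibitor, Migut.L00983 fell from 126 to 15.2 CPM (-2.67, SE 0.66, adjusted p = 0.00426), and Migut.L00816, Migut.H02350 and Migut.C00655 had 38.2, 22 and 18.8 CPM in ovules with no call at 2 DAP. The S-protein homologues Migut.F01754 and Migut.K01035 rose from 22.6 to 101 CPM (2.42, SE 0.46, adjusted p = 0.000423) and from 6.98 to 22 CPM (2.01, SE 0.33, adjusted p = 0.000114), and Migut.H02436 had 6.73 CPM in ovules and 0.819 CPM at 2 DAP.

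Other relatives had means of 1.01 CPM or less in ovules and were read in seeds. The cupin Migut.H00772 had at most 0.315 CPM in any ovule library and 331 ± 143 CPM at 2 DAP, 2624 ± 177 CPM at 6 DAP and 1280 ± 330 CPM at 8 DAP (SD, n = 4 each), and varied over 6-fold. The cupin Migut.H00944 went from 0.785 ± 0.402 CPM in ovules (n = 5) to 485 ± 188 CPM at 2 DAP. Of the expansin B2 homologues, Migut.F01692 had nearly the course of the kept gene, with 97.7 CPM at 2 DAP, 158 CPM at 4 DAP, 538 CPM at 6 DAP and 84.5 CPM at 8 DAP. Migut.F01693 went from 46.1 CPM at 2 DAP to 1.69 CPM at 8 DAP, and fell by 3.04 on the log2 scale from 6 to 8 DAP (SE 0.49, edgeR adjusted p = 0.000148). Migut.F01694 had 20.8 CPM at 2 DAP, 13.5 CPM at 4 DAP and 0.311 CPM at 6 DAP. All 5 relatives of the XTH3 homologue were higher at 2 DAP than in ovules, and at 8 DAP they were all at 8.85 CPM or less against 127 CPM for the kept gene. Of these, Migut.A01017 fell by 4.29 on the log2 scale from 6 to 8 DAP (SE 0.54, adjusted p = 1.6e-05), while the kept gene was at 62.2 and 127 CPM at these ages. The family 10 hydrolase Migut.N01138 went from 61.1 CPM at 4 DAP to 6.28 CPM at 8 DAP, where its neighbour Migut.N01139 had 47.9 and 53.4 CPM. The TBL38 homologue Migut.H01451 fell by 3.06 from 6 to 8 DAP (SE 0.61, adjusted p = 0.00111), from 86.8 to 8.21 CPM. In the N-acetylglucosaminyltransferase family Migut.F01515 had 51.9 and 53.6 CPM at 2 and 4 DAP and 727 and 822 CPM at 6 and 8 DAP. Among the S-protein homologues with the same nearest gene, Migut.F01732 and Migut.F01941 were at 0.199 CPM or less at 2 and 4 DAP and at 82.9 and 95.7 CPM at 8 DAP, while Migut.F01744, next in number to the kept gene, had 162 CPM at 6 DAP and 37.8 CPM at 8 DAP. The differences between kept genes and relatives were not tested.

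**Figure D5:**
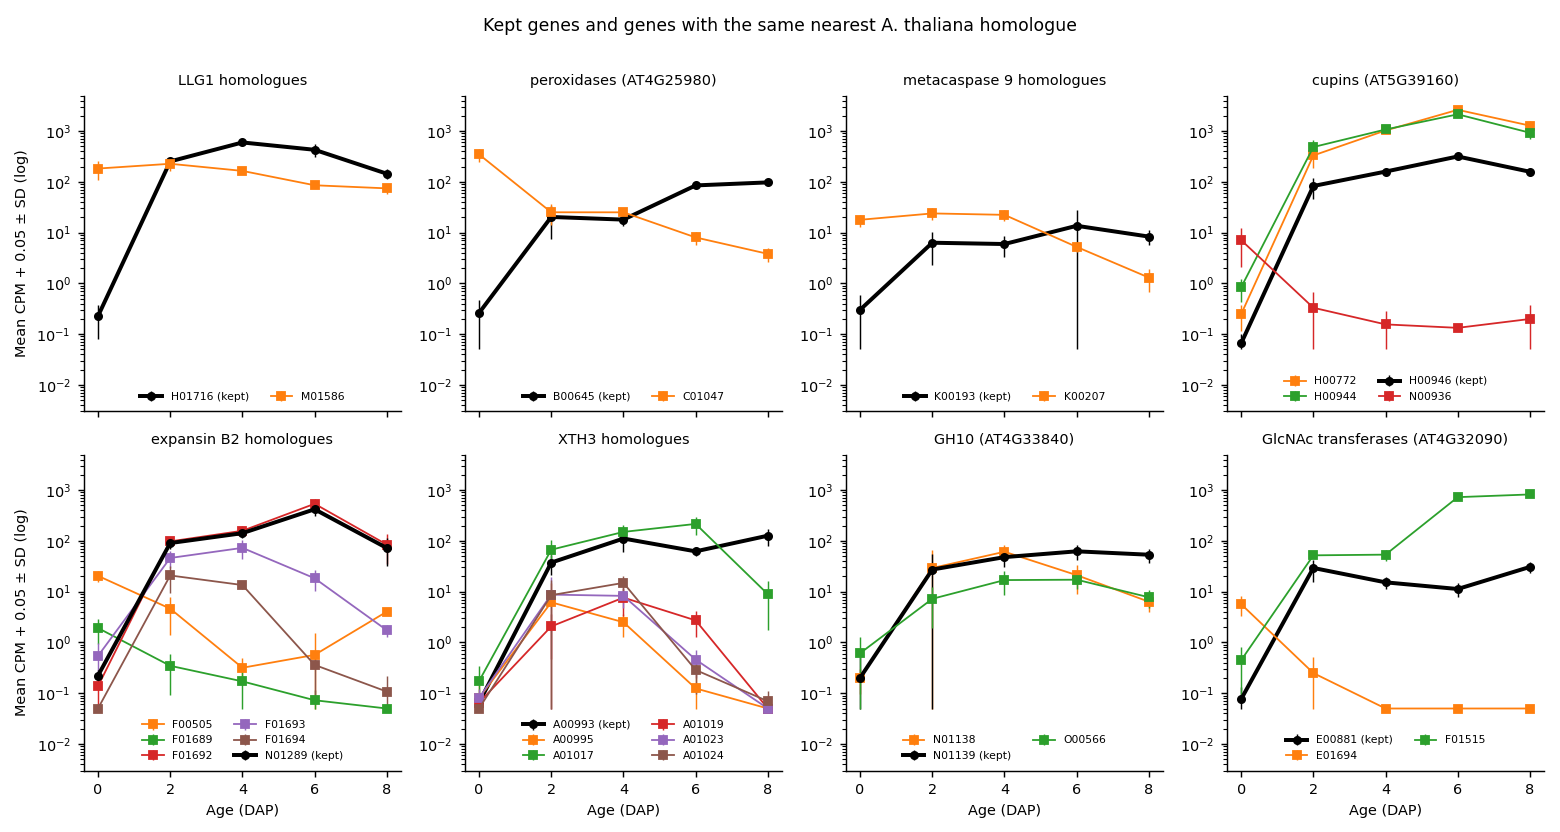
Mean CPM plus 0.05 with SD (log axis, lower bars end at 0 CPM) by age in DAP for 8 of the 30 genes (black) and the genes with the same nearest A. thaliana homologue (colours). The LLG1, peroxidase and metacaspase 9 relatives are read in ovules at 183, 347 and 17.8 CPM, and the 5 XTH3 relatives are at 8.85 CPM or less at 8 DAP against 127 CPM for the kept gene.

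The names of the 30 genes carried 12 different group letters, with 6 genes under D and 4 under N. Of 177 genes within 3 gene numbers of a kept gene, 10 were off in ovules and on at 2 DAP (5.65%, against 0.70% of all genes), 2 of them kept genes. These limits are part of the choice, so the 2 kept genes passed them by construction. Neighbours of the same kept gene are not independent, and the difference between the shares was not tested. Of the other 8, the XTH3 homologue Migut.A00995, the family 10 hydrolase Migut.N01138 and the S-protein homologues Migut.F01740, Migut.F01742, Migut.F01744 and Migut.F01745 had descriptions like that of the kept gene near them. Migut.G00539, next to Migut.G00540, had 32.1 CPM at 2 DAP, 43.1 CPM at 4 DAP and 0.10 CPM at 8 DAP. Of the 30 genes 21 were on the study's list of 478 seed-exclusive genes, as were 127 of the 197 genes on at 2 DAP. That list was drawn from these samples and from other tissues, and is not independent evidence.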

How the data were processed

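RNA of un-pollinated SEC39 ovules and of SEC39 x CSS4 hybrid seeds was sequenced by the authors in 20 directional libraries. Reads were mapped with STAR against a pseudo-reference of each parent, with a mismatch share of up to 0.04. The mappings were combined by lapels and suspenders, and uniquely mapped pairs were counted with featureCounts per gene of the Mimulus guttatus v2.0 models. Their versions are not given in the sources used here. The deposited files hold raw read counts, 1 number per gene and library, without normalization. No genome or sequence table was used.

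CPM was computed from these counts. The 30 genes, the gene lists and the cell type lists were chosen with earlier results of these data known. edgeR 4.0.16 (limma 3.58.1, R 4.3.3) was run on the 20242 genes (all 30 among them) that exceeded 1 CPM in 3 or more libraries, with TMM scaling, 1 coefficient per age, all 20 libraries, robust quasi-likelihood F tests and Benjamini-Hochberg adjustment over all genes at 0.01. Alternatives were edgeR's likelihood ratio test, DESeq2 1.42.0, RLE scaling, no filter, an adjusted p of 0.05, only the ages compared, replicate blocks, a library series term, other limits of the rule, and leaving out each library. Scaling by totals alone and the comparison of relatives were added after seeing the data. The edgeR fit was tested on simulated data. Tables and plots used Python 3.11.15 with numpy 2.4.6, pandas 2.3.3, scipy 1.17.1 and matplotlib 3.10.9. Of the study's tables only homologue names and list membership were used.

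Genes named were the 10 kept genes with the largest lowest seed mean, up to 4 of each list, the 3 largest rises and falls called per pair of seed ages, genes beside each limit, kept genes with neighbouring numbers and all transcription factors. The other kept genes and the relatives were named after their values were seen. By the study's methods seed pools share maternal plants across ages. Libraries of 1 plant had a median correlation of deviations of 0.01 (28 pairs, lowest -0.24), and libraries with 1 label number -0.03 (36 pairs, lowest -0.21).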

Additional observations from a re-analysis of the deposited data

Results flagged for a closer look

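Of 90 groups of 4 libraries (30 genes at 2, 6 and 8 DAP), 7 held a library far from the other 3. The groups share libraries and are not independent, and how many would arise by chance was not tested. Replicate 1 was that library for 4 genes at 2 DAP. It had 113 CPM for Migut.D00530, where the others had 147 to 153 CPM. It had 32.1 CPM for Migut.N01137 against 4.40 to 5.47 CPM, 44.1 CPM for the TBL38 homologue Migut.D00791 against 2.11 to 6.18 CPM, and 15.1 CPM for Migut.O00754 against 4.59 to 5.47 CPM. Replicate 3 at 2 DAP had 214 CPM for Migut.G00540, where the others had 0.757 to 36.3 CPM. Replicate 4 at 6 DAP had 47.4 CPM for the IBH1 homologue Migut.D00738 against 28.7 to 29.1 CPM, and 35.2 CPM for the metacaspase 9 homologue Migut.K00193 against 4.46 to 7.67 CPM.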

How the results depend on the processing

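The number of genes kept was 26 to 37 when each library was left out, 44 with TMM-scaled CPM (27 of the 30 among them), 50 with an ovule limit of 1 CPM, 51 with a seed limit of 2.5 CPM and 16 with a range of at most 3-fold. Genes called from 2 to 4 DAP were 1 at an adjusted p of 0.05 and 0 to 1 when each library was left out. From 4 to 6 DAP they were 7 at an adjusted p of 0.05, 13 with only the ages compared, 7 with a library series term and 0 to 8 when each library was left out. From 6 to 8 DAP they were 9 at 0.05, 13 with only the ages compared, 8 with the series term, 3 with library totals alone and 2 to 6 when each library was left out. Between 2 and 8 DAP they were 8 at 0.05, 8 with the series term and 3 to 8 when each library was left out. Relatives called from 6 to 8 DAP were 32 by the likelihood ratio test, 29 by DESeq2, 34 at 0.05, 31 with only the ages compared and 30 with the series term, against 19, and 14 to 27 when each library was left out. Relatives called from ovules to 2 DAP were 36 to 53 over all settings, against 48. The cause of these changes was not tested, other than the larger threshold and the fewer samples by construction.

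With the maternal plant as replicate block the calls were 0, 5, 5 and 5 for 2 to 4, 4 to 6, 6 to 8 and 2 to 8 DAP, and with the label number as block 0, 4, 5 and 4. The block lost none of the 13 calls of single genes between seed ages. No call of a single gene reversed. Of 260 values with a library left out 29 no longer passed, and of 130 under other settings 5. Depth limits the ovule values, where 17 of the 30 genes had under 10 counts over 5 libraries.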
